A study of Mus musculus with 36 samples.

Results

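Motor neuron and cholinergic genes were followed across all libraries of a mouse nerve injury study. They were chosen by name, 9 of the 55487 genes in the table of estimated reads: Chat, Slc18a3, Slc5a7, Ache, Mnx1, Isl1, Isl2, Prph and Chodl, each matched to its symbol in GENCODE M21. The study measured RNA in 36 libraries of dorsal root ganglion (DRG, which holds the cell bodies of sensory neurons) and dorsal spinal cord of female mice, 18 per tissue. In each tissue there were 5 libraries from naive wild-type mice, 5 from naive knockout mice, 4 from wild-type mice with spared nerve injury (SNI) and 4 from knockout mice with SNI. SNI is an operation in which branches of the sciatic nerve are cut and another branch is spared. It severs axons of sensory neurons and of motor neurons. The naive groups had no treatment, and neither age, time after injury nor strain is given in the sources used here. Libraries are called here by the codes of their titles, such as F5. The labels do not say whether libraries came from separate mice, so p-values measure the spread between these libraries. The titles of naive DRG libraries A2 and A4 call them wild type, but the genotype field and the column headings put both in the knockout group. They were kept there, and values without them stand beside the results on naive knockout DRG.

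Cholinergic neurons make acetylcholine from choline with choline acetyltransferase (Chat), load it into vesicles with the vesicular transporter (Slc18a3) and take choline back up with the high-affinity transporter (Slc5a7). Acetylcholinesterase (Ache) breaks the transmitter down at the synapse. Spinal motor neurons are cholinergic neurons whose axons leave the cord. Their identity is set during development by homeodomain factors that include Mnx1, Isl1 and Isl2. Prph encodes peripherin, an intermediate filament protein of neurons that project to the periphery, and Chodl encodes chondrolectin, a membrane protein known from fast motor neurons. Isl1, Isl2 and Prph are also well known from sensory neurons of the DRG.

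Chat, Slc18a3 and Slc5a7 moved together between cord libraries, and the sequences before their starts are shown for that reason. Slc18a3 is a gene of 1 exon at chromosome 14, 32462438 to 32464850, on the minus strand of GRCm38. It lies inside the span of Chat (chromosome 14, 32408203 to 32465989, minus strand) with no exon in common, and the RefSeq starts of the pair are 1059 bases apart. Slc5a7 lies on the minus strand of chromosome 17 from 54273590 to 54299034. Each stretch below is the 250 bases before the start in RefSeq on GRCm38.p6, written 5′ to 3′ on the gene's strand, with matches to the motifs named below in capitals. The windows are chr14:32465910-32466159 for Chat, chr14:32464851-32465100 for Slc18a3 and chr17:54299035-54299284 for Slc5a7. The GENCODE model of Chat begins inside its window.
Chat: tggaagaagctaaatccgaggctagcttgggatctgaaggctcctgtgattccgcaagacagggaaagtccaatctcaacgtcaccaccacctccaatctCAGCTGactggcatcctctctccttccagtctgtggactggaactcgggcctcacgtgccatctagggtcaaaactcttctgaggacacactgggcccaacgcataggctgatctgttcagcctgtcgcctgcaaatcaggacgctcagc
Slc18a3: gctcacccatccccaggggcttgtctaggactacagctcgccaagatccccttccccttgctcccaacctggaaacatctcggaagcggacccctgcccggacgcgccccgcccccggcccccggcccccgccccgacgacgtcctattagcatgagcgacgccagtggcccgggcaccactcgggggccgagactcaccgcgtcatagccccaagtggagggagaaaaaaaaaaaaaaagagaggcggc
Slc5a7: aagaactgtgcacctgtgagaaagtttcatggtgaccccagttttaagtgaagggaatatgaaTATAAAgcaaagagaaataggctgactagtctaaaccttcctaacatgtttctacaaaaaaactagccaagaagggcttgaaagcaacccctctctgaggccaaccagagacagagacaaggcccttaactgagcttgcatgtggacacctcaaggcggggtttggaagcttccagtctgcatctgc
Both strands were searched for 3 motifs, and no match overlapped another. An E-box, CAGCTG, occurred once in Chat, once in Isl1 and in 13% of 32851 RefSeq windows of the same length. TATAAA, the letters of a TATA box, occurred once in Slc5a7, once in Prph and in 12.4% of all windows. A core bound by many homeodomain proteins, TAATTA, occurred in none of the 9 members and in 4.84% of all windows. Slc18a3, Ache, Mnx1, Isl2 and Chodl held none of the 3. A match is a description of letters, not of a site in use.

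The other members lie apart from these on GRCm38: Ache on chromosome 5 (137287519 to 137294466, plus strand), Mnx1 on chromosome 5 (29473034 to 29478470, minus), Isl1 on chromosome 13 (116298281 to 116309689, minus), Isl2 on chromosome 9 (55538672 to 55546180, plus), Prph on chromosome 15 (99055174 to 99058978, plus) and Chodl on chromosome 16 (78930948 to 78951733, plus). Exons of Gm42456, a long noncoding RNA gene on the opposite strand, overlap those of Ache. Gm42456 averaged 0.139 reads per library, and whether the counting used strand is not given in the sources used here.

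Each library held between 21.34 and 27.27 M estimated reads. Values are CPM (read counts scaled to a common library total) with TMM-scaled library sizes, and values after ± are standard deviations for CPM and standard errors for log2 fold changes. A gene was called when its Benjamini-Hochberg adjusted p from edgeR's quasi-likelihood test, over all genes tested in the comparison, was under 0.05. The tissue labels were checked with lists of markers. Summed CPM of 8 sensory neuron markers was 1337 to 3211 in DRG libraries and 2.501 to 6.777 in cord libraries. All 9 dorsal horn markers had reads in every cord library, with sums of 96.47 to 118.6 CPM, and all 10 markers of ventral interneurons had reads there too, with sums of 18.48 to 24.68 CPM. In DRG libraries 4 to 7 of these 10 had reads. Their sums there, 22.99 to 34.61 CPM, overlapped or exceeded those of cord, so this sum does not separate the tissues. The cord libraries held RNA of motor neuron and ventral interneuron genes. Their tissue field says only spinal cord, and the series text says dorsal.

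The members fell into 2 sets by tissue. In naive mice, all 9 of 9 members were called between DRG and cord in each genotype, where 78.2% of all genes tested were called in wild type and 76.3% in knockout. The counts are read against that background, which is high. Isl1, Isl2 and Prph, 3 of 9, were higher in DRG (background for this direction 40.9% in wild type and 37.8% in knockout), and the other 6 were lower (37.3% and 38.5%). For DRG the label "motor neuron gene" therefore does not describe Isl1, Isl2 and Prph, whose highest levels were in the ganglion.

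Among the genes of acetylcholine synthesis and release, Chat was near 0 in DRG. The 5 naive wild-type DRG libraries held 5 Chat reads in all and the naive knockout ones 7, of which 5 were in A2, against 1435 and 1292 reads in the matching cord libraries. Scaled to library totals, the cord to DRG ratio of Chat was 306 (95% interval for counting error 131 to 941) in wild type and 193 (93.6 to 479.9) in knockout. Without A2 and A4 the fitted difference of Chat in knockout was -8.44 on the log2 scale, against -7.51 with them. Slc18a3 had 3 reads in naive wild-type DRG and 0 in naive knockout DRG, against 1901 and 1574 in cord. Its ratio was 675 (231 to 3272) in wild type, and in knockout its interval began at 446 and had no upper end. Slc5a7 had a clear level in ganglion: 3.88 ± 0.454 CPM in naive wild-type DRG against 58.7 ± 13.3 in cord (log2 fold change -4.00 ± 0.16, adjusted p = 2.58e-15). The knockout difference was -4.09 ± 0.16, and -4.24 without A2 and A4. PCR reads without molecular identifiers are not independent molecules, so these intervals cover counting error only.

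Ache was present in both tissues, at 38.5 ± 9.86 CPM in naive wild-type DRG and 178 ± 7.02 in cord (-2.29 ± 0.13 for DRG over cord, adjusted p = 1.16e-12). In knockout the difference was -1.79 ± 0.12, and also -1.79 without A2 and A4. Among the identity genes, Mnx1 had 5 reads over the 5 naive DRG libraries of each genotype and 96 and 78 reads over the naive wild-type and knockout cord libraries. Isl1 was 61.3 ± 4.38 CPM in naive wild-type DRG and 1.2 ± 0.141 in cord (5.59 ± 0.10, adjusted p = 1.78e-22). Isl2 was 65.5 ± 15.7 against 0.853 ± 0.312 CPM (6.18 ± 0.20). Prph, the filament gene, was 837 ± 141 CPM in DRG and 28.5 ± 7.88 in cord (4.80 ± 0.17), and Chodl was 2.94 ± 0.363 against 25.9 ± 6.55 (-3.20 ± 0.19). No library of one tissue overlapped the other tissue for any of the 9 members in naive mice, in either genotype. The share of all genes without such overlap is not given here, so this is not read as a trait of the members. All 9 were also called in both genotypes without A2 and A4. Group levels are those of the fit within each tissue, and fold changes between tissues those of the fit over both.

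Per kilobase of exon, levels can be set beside one another. In naive wild-type cord the order of CPM per kilobase was Ache (38.6), Prph (14.3), Slc5a7 (10.4), Slc18a3 (6.79), Chodl (4.71) and Chat (2.63), with Isl2 (0.389), Mnx1 (0.366) and Isl1 (0.303) far below and close to one another. In naive wild-type DRG, Prph (419) led, before Isl2 (29.9), Isl1 (15.5) and Ache (8.32), followed by Slc5a7 (0.687) and Chodl (0.535). Ordering the 8 groups by mean CPM, the 4 cord groups of Chat lay within 9.56 to 12.8 CPM, and every group overlapped its neighbour in the order. For Slc18a3 they lay within 12.7 to 18.9 CPM and for Slc5a7 within 37.2 to 58.7, again with overlap between neighbours. In these orders the lowest cord group was the injured wild type, for Chat, Slc18a3, Slc5a7, Ache, Mnx1 and Chodl alike.

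**Figure D1:**
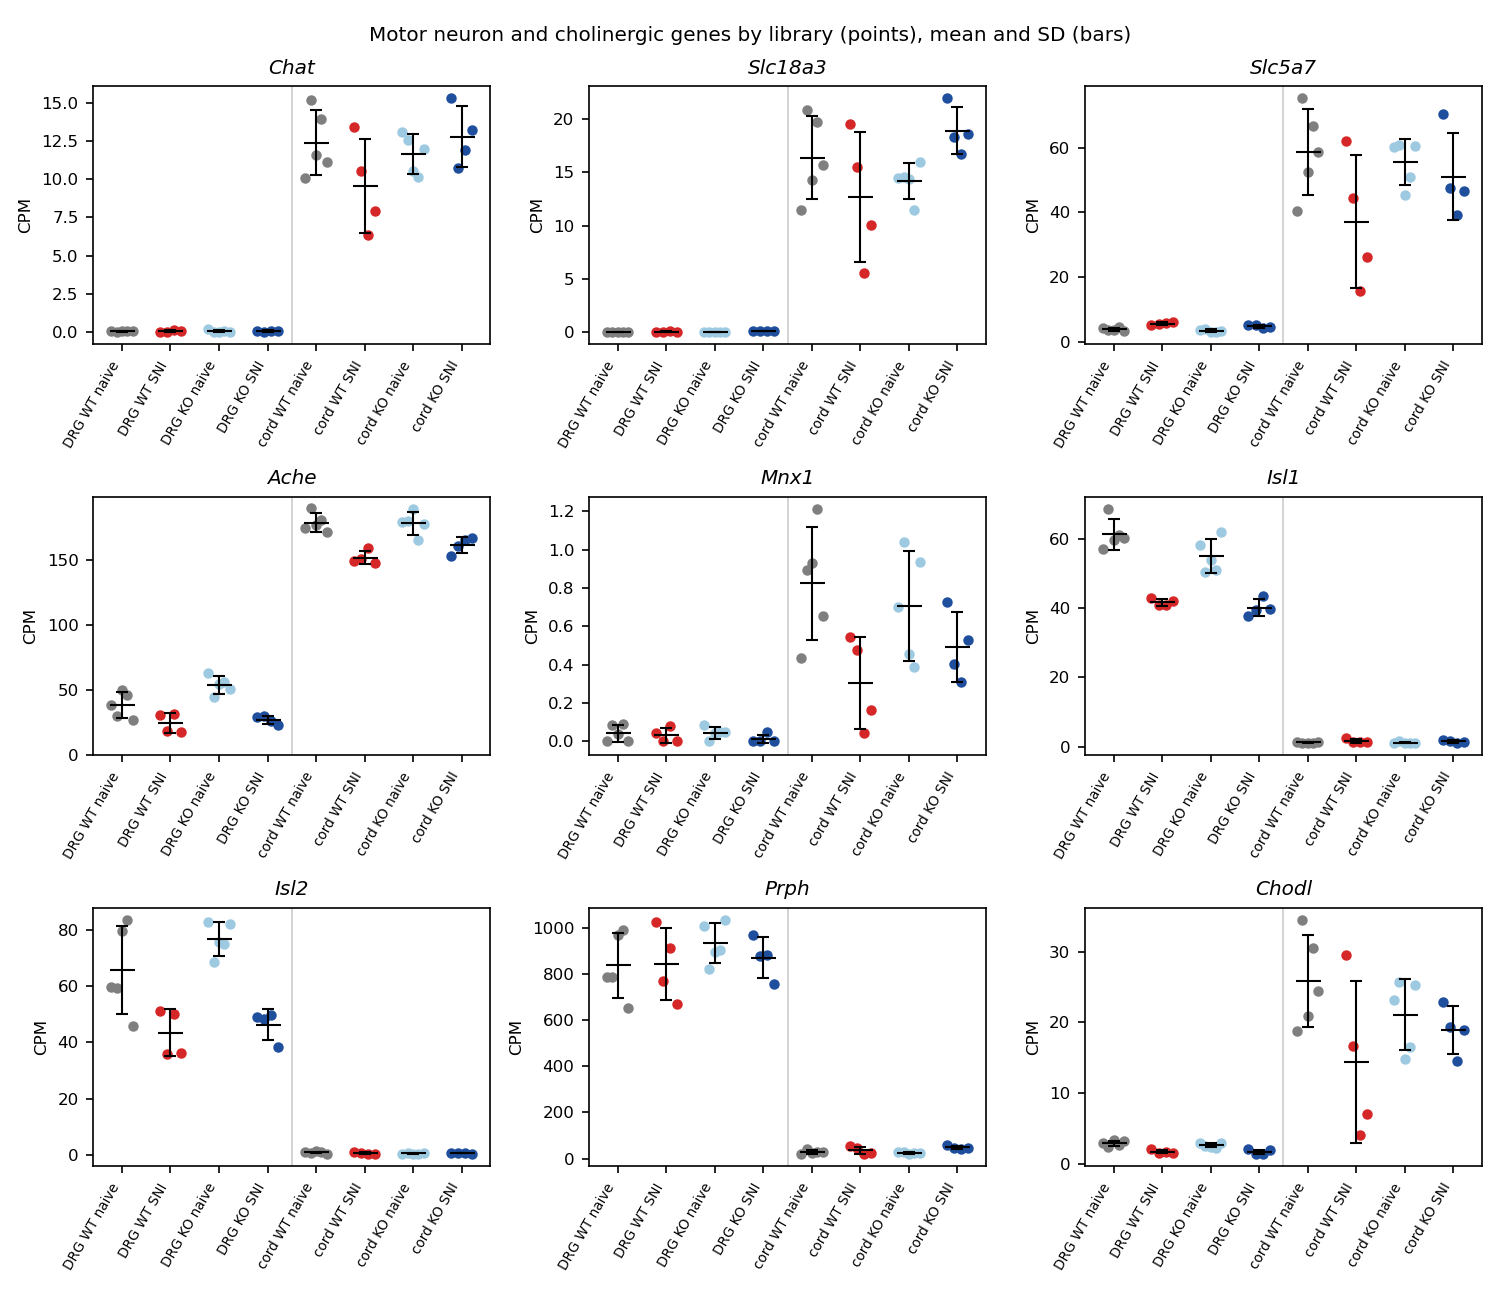
CPM (linear axis) of the 9 genes in every library, by group (WT, wild type; KO, knockout; SNI, spared nerve injury); points are libraries, and bars are the group mean with its standard deviation. Chat, Slc18a3, Slc5a7, Ache, Mnx1 and Chodl are higher in cord, Isl1, Isl2 and Prph in DRG, and the injured wild-type cord libraries spread widely, from 6.38 to 13.4 CPM for Chat.

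After nerve injury, 5 of the 6 members tested in DRG were called in each genotype, and they were the same 5. Slc5a7 rose, while Ache, Isl1, Isl2 and Chodl fell, and Prph was not called. The background share of called genes was 24.9% in wild-type DRG (12.6% higher, 12.3% lower) and 28.5% in knockout DRG (15.1% higher, 13.3% lower). Chat, Slc18a3 and Mnx1 did not pass the filter on low counts in DRG and were not tested. The median log2 fold change of the 6 tested members was -0.57 in wild type and -0.56 in knockout, beside -0.01 and 0.01 over all genes tested. In bulk tissue, fewer cells of a type and less RNA per cell cannot be told apart.

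Slc5a7, the choline transporter, was 4.13, 3.79, 3.77, 4.46 and 3.24 CPM in naive wild-type DRG and 5.13, 5.51, 5.89 and 6.1 CPM in the injured libraries. All injured libraries lay above all naive ones. The log2 fold change was 0.55 ± 0.11 (adjusted p = 0.00149). In knockout DRG, naive libraries ran from 2.89 to 3.98 CPM and injured ones from 4.35 to 5.2 CPM, again without overlap (0.51 ± 0.12, adjusted p = 0.00308).

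The neighbouring steps of the cholinergic pathway gave almost no reads in DRG. Chat had 0, 0, 4 and 2 reads in the injured wild-type libraries and 2, 0, 2 and 1 in the injured knockout ones. Slc18a3 had 0, 1, 3 and 0 reads in injured wild type. In knockout it had 0 reads in each of the 5 naive libraries and 2, 2, 2 and 3 reads in the 4 injured ones. No fold is given for so few reads.

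Isl1, a transcription factor of sensory and motor neurons, ran from 57 to 68.7 CPM in naive wild-type DRG and from 40.8 to 42.9 CPM after injury, with no overlap (-0.56 ± 0.07, adjusted p = 5.16e-06). In knockout it ran from 50.4 to 62 CPM and from 37.8 to 43.6 CPM, also apart (-0.46 ± 0.07, adjusted p = 4.61e-05). Its relative Isl2 was 59.7, 59.1, 79.4, 83.5 and 45.8 CPM in naive wild type and 51.1, 36, 50.2 and 36.3 CPM after injury. Those groups overlapped through naive library C1, at 45.8 CPM, and the fold change was -0.59 ± 0.15 (adjusted p = 0.00787). Isl2 in knockout was 68.3 to 82.8 CPM and 38.3 to 49.5 CPM, without overlap (-0.73 ± 0.15, adjusted p = 0.00153). Chodl, at a low level, went from 2.46 to 3.36 CPM in naive wild type to 1.52 to 2.07 CPM after injury, without overlap (-0.77 ± 0.15, adjusted p = 0.00085), and in knockout fell by 0.66 on the log2 scale (SE 0.15, adjusted p = 0.00344).

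Ache, which breaks acetylcholine down, was 38.7, 30, 50, 46.2 and 27.4 CPM in naive wild-type DRG and 30.9, 18.4, 31.8 and 17.8 CPM after injury. The groups overlapped, and the fold change was -0.64 ± 0.19 (adjusted p = 0.0219). This call was lost when either naive library B1 or B3 or injured library E3 or F3 was left out (adjusted p = 0.0565 to 0.0845). It was also lost without the filter on low counts (0.0698) and with only the 2 groups compared in the fit (0.0918), in a range of 0.00544 to 0.0918 over 24 alternatives. In knockout, Ache was 62.8, 44.6, 54.6, 56 and 51 CPM in naive DRG and 29.6, 29.9, 26.1 and 23.4 CPM after injury, with no overlap (-0.98 ± 0.19, adjusted p = 0.000897). Prph, in contrast to these, was 653 to 990 CPM in naive and 670 to 1026 CPM in injured wild-type DRG (0.01 ± 0.13, adjusted p = 0.965), and -0.10 ± 0.13 in knockout (adjusted p = 0.615).

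Without A2 and A4, the same 5 members were called in knockout DRG, with log2 fold changes of 0.65 for Slc5a7, -0.98 for Ache, -0.47 for Isl1, -0.75 for Isl2 and -0.62 for Chodl (adjusted p = 0.000282 to 0.0212). Markers of sensory neurons moved in the same comparison. Of the 8, 4 were lower and none higher in wild type and 5 lower in knockout, 4 without A2 and A4. Their sums went from 1826 to 2940 CPM in naive to 1337 to 2324 CPM in injured wild-type DRG, and from 2905 to 3211 to 2015 to 2471 CPM in knockout. Of 7 skeletal muscle markers, 3 were lower in wild type and none was called in knockout, with sums of 2.71 to 83.5 CPM in naive and 1.61 to 12.8 CPM in injured wild-type DRG. The part of either in the changes of the members was not tested.

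Other genes of the cholinergic system changed in both directions in injured DRG. Of 24 listed, 20 were tested, and 4 were higher and 7 lower in wild type, 4 higher and 9 lower in knockout (4 and 8 without A2 and A4). The nicotinic subunit Chrna5 had the largest rise among the named ones, from 0.266 to 1.86 CPM in wild-type DRG (2.79 ± 0.30, adjusted p = 1.31e-06) and from 0.287 to 2.56 CPM in knockout (3.13 ± 0.30, adjusted p = 2.31e-07). The muscarinic receptor Chrm2 went down in wild-type DRG from 15.7 to 7.86 CPM (edgeR adjusted p = 3.90e-07), and from 27.1 to 13.6 CPM in knockout (-0.99 ± 0.09, adjusted p = 2.30e-07). Chrna7, another nicotinic subunit, fell in wild type (-0.78 ± 0.12), and Bche, the second cholinesterase, fell in knockout (-0.54 ± 0.09). Of 12 other motor neuron genes, 9 were tested in DRG: 2 were higher and 2 lower in wild type, 1 higher and 4 lower in knockout. Without A2 and A4 the knockout counts were the same, and in wild type 1 was higher and 2 lower. The called genes include Gfra1, a GDNF co-receptor (1.02 ± 0.15 and 1.12 ± 0.15), and Esrrg, a nuclear receptor (-0.69 ± 0.15 and -0.92 ± 0.15). Without A2 and A4 the knockout changes were 3.17 for Chrna5, -1.02 for Chrm2, -0.52 for Bche, 1.06 for Gfra1 and -0.94 for Esrrg, all called.

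**Figure D2:**
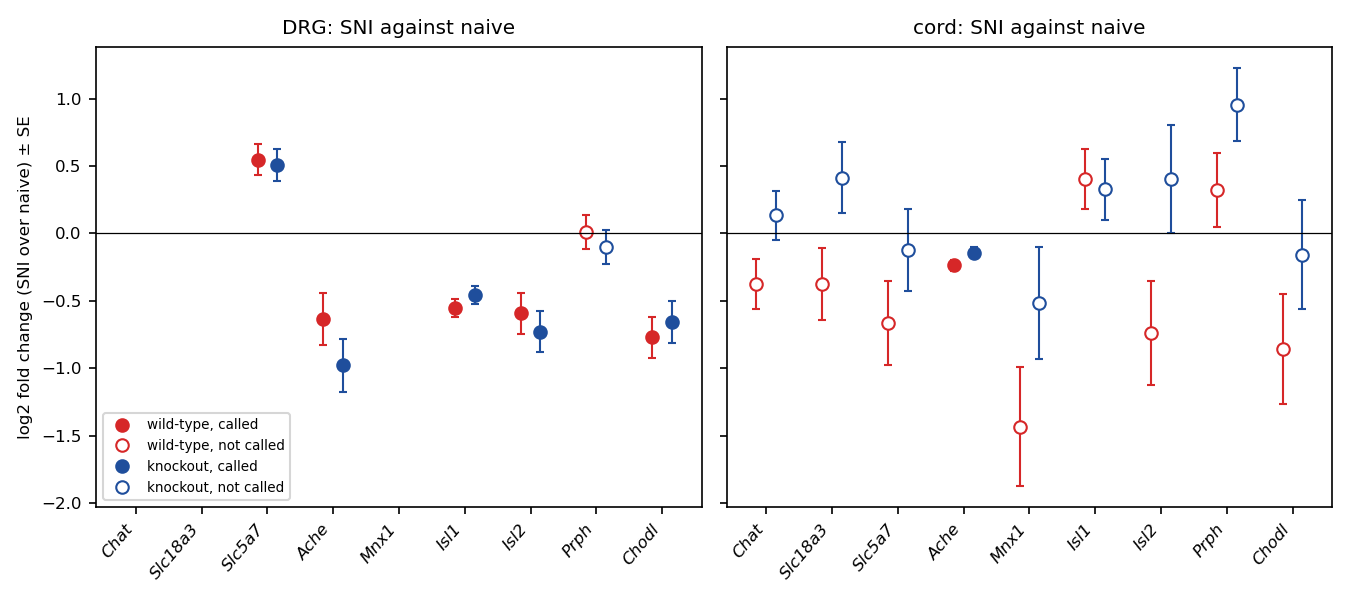
Log2 fold change of SNI over naive with its standard error for each gene, in DRG (left) and cord (right), wild type in red and knockout in blue; filled points were called by edgeR at an adjusted p under 0.05, open points were not, and genes below the filter on low counts in DRG have no point. In DRG the 2 genotypes lie close together with Slc5a7 above 0 and Ache, Isl1, Isl2 and Chodl below; in cord Ache alone is filled, and most wild-type points lie below the knockout ones.

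Genotype made no called difference to the members in DRG. Of the 6 tested, 0 were called in naive DRG by edgeR, where 28.2% of all genes were called, 2 had an unadjusted p under 0.05, and DESeq2 called 1. That one was Ache, 38.5 ± 9.86 CPM in wild type and 53.8 ± 6.7 CPM in knockout, with overlap (0.48 ± 0.18, adjusted p = 0.0503). Over 24 alternatives its adjusted p ran from 0.00823 to 0.135, and it was 0.0988 without A2 and A4. Isl1, the other, was 55.1 ± 4.93 CPM in knockout against 61.3 ± 4.38 (-0.15 ± 0.06, adjusted p = 0.0705), and was called only without library C2 (adjusted p = 0.0316, and 0.0316 to 0.217 over 24 alternatives). Without A2 and A4 it was -0.13 (adjusted p = 0.217). In the same comparison all 5 blood markers were lower in knockout, with sums of 191 to 610 CPM against 737 to 3540 in wild type. Without A2 and A4, 3 of the 5 were lower and the knockout sums were 322 to 610 CPM. Their part was not tested.

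In injured DRG, 0 of 6 members were called between genotypes (background 5.1%), 0 had an unadjusted p under 0.05 and DESeq2 called 0. The responses to injury did not differ by a call either: in the interaction of genotype and injury 0 of 6 passed, with 0 at an unadjusted p under 0.05 and 0 by DESeq2, and only 0.0256% of all genes did. The interaction of Ache was -0.34 ± 0.27 and that of Isl1 0.10 ± 0.09, and -0.36 and 0.07 without A2 and A4. Of 20 other cholinergic genes tested, 7 were higher and 1 lower in naive knockout DRG, where 28.2% of all genes were called in either direction. The share by direction is not given here, so the count is not read as a trait of these genes. Among those higher were Chrm2 (0.79 ± 0.09, adjusted p = 6.94e-06) and Chrna3 (0.82 ± 0.18). Both were also higher in injured knockout DRG (0.79 ± 0.10 and 0.71 ± 0.18). Without A2 and A4, 5 were higher and none lower in naive knockout DRG, Chrm2 (0.83 ± 0.10) and Chrna3 (0.86 ± 0.21) among them.

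In cord, Ache was the only member called after injury. Its change was smaller than those estimated for several members that were not called, whose errors were wider. Of 9 members tested, 1 was called in wild type, where 2.88% of genes were called (0.271% lower), and 1 in knockout, where 4.42% were (0.626% lower). Ache was 175, 189, 176, 180 and 171 CPM in naive wild-type cord and 149, 151, 159 and 147 CPM after injury. No injured library reached the naive ones (-0.24 ± 0.04, adjusted p = 0.000423, and 5.38e-07 to 0.00519 over 24 alternatives). In knockout cord it was 165 to 189 CPM naive and 153 to 166 CPM injured, with overlap (-0.14 ± 0.04, adjusted p = 0.0385). That call was lost in 10 of 24 alternatives, when any of A6, A8, B6, B7, C6, E6, E8, F6 or F8 was left out and with only the 2 groups in the fit (adjusted p = 0.0533 to 0.186).

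Prph, the peripherin gene, differed without overlap in knockout cord but was not called there. It was 28.2, 28.9, 20.6, 22.6 and 25.5 CPM in naive libraries and 58.5, 46.9, 43.6 and 46.2 CPM in injured ones (0.96 ± 0.27, adjusted p = 0.0684). The call was made in 5 of 24 alternatives: DESeq2 (adjusted p = 0.0135), only the 2 groups in the fit (0.00174), without E5 (0.0433), without F5 (0.0248) and without both F5 and F7 (0.00656), and the whole range was 0.00174 to 0.204. In wild-type cord Prph was 19.6, 40.9, 25.2, 29.8 and 27.1 CPM in naive and 52.9, 46.5, 18.1 and 25.4 CPM in injured libraries, in which E5 and E7 stood above all naive libraries and F5 below them (0.32 ± 0.27, adjusted p = 0.756).

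The genes of acetylcholine synthesis and release were not called in cord. Chat was 10, 15.2, 11.6, 13.9 and 11.1 CPM in naive wild-type cord and 13.4, 10.5, 6.38 and 7.91 CPM after injury (-0.38 ± 0.18, adjusted p = 0.475). E5 and E7 lay within the naive range, and F5 and F7 below it. In knockout Chat was 10.1 to 13.1 CPM naive and 10.7 to 15.3 CPM injured (0.13 ± 0.18, adjusted p = 0.822). Slc18a3 repeated this: 5.56 and 10.1 CPM in F5 and F7, below the 11.4 to 20.8 CPM of naive wild type, and 19.5 and 15.5 CPM in E5 and E7 within it (-0.38 ± 0.27, adjusted p = 0.697). In knockout its injured libraries, at 16.7 to 22 CPM, lay above the naive ones at 11.5 to 16 CPM, without a call (0.41 ± 0.26, adjusted p = 0.537). It was called with only the 2 groups in the fit (adjusted p = 0.00966). Slc5a7 was 62.1, 44.4, 15.8 and 26.3 CPM in E5, E7, F5 and F7, against 40.5 to 75.4 CPM in naive wild type (-0.66 ± 0.31, adjusted p = 0.449).

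Chodl and the identity genes were not called either. Chodl was 29.6 and 16.6 CPM in E5 and E7 and 4.15 and 7.04 CPM in F5 and F7, against 18.8 to 34.5 CPM in naive wild type (-0.86 ± 0.41, adjusted p = 0.463). Mnx1 rested on few reads: 10, 20, 21, 30 and 15 in naive wild type, and 12, 11, 1 and 4 in E5, E7, F5 and F7 (-1.43 ± 0.44, adjusted p = 0.0984). It was called without A5 (0.0464) or without E5 (0.0447), and was -0.70 without F5 and F7. Isl1 was 1.25 to 2.44 CPM and Isl2 0.124 to 1.08 CPM in injured wild-type cord, with log2 fold changes of 0.40 ± 0.22 and -0.74 ± 0.39. In knockout cord the changes were -0.16 ± 0.40 for Chodl, -0.52 ± 0.42 for Mnx1, 0.33 ± 0.23 for Isl1 and 0.40 ± 0.40 for Isl2, none of them called, and Slc5a7 was -0.12 ± 0.30. The median log2 fold change of the 9 members was -0.38 in wild type and 0.13 in knockout, beside -0.01 in each over all genes.

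Libraries F5 and F7 were picked out here because they held the least Chat, after the values were seen, so the fit without them describes and supports nothing. In that fit the wild-type changes were -0.05 ± 0.16 for Chat, 0.09 ± 0.20 for Slc18a3, -0.14 ± 0.25 for Slc5a7 and -0.17 ± 0.30 for Chodl. Prph was 0.80 ± 0.21 there (adjusted p = 0.0994) and Ache -0.25 ± 0.05 (adjusted p = 0.00519).

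Between genotypes no member was called in cord. In naive cord 0 of 9 passed in edgeR (background 19.7%), 1 had an unadjusted p under 0.05 (Isl2, -0.78 ± 0.37, adjusted p = 0.138) and DESeq2 called 0. In injured cord 0 of 9 passed (6.26%), 2 had an unadjusted p under 0.05 and DESeq2 called 0. These were Chat (0.42 ± 0.19, adjusted p = 0.237) and Ache (0.09 ± 0.04, adjusted p = 0.243). Leaving out E5 gave a call for Chat (0.62, adjusted p = 0.0469). The interaction in cord was called for 0 of 9 members and for 0% of all genes, with 1150 genes and 0 members at an unadjusted p under 0.05 and 0 members by DESeq2. Marker lists moved between genotypes in naive cord, beside members that were not called. Blood markers were lower in knockout (4 of 5 called, sums of 137 to 172 CPM against 170 to 482 in wild type), 2 of 6 Schwann cell markers were lower (381 to 916 against 630 to 1222 CPM), and 2 of 9 dorsal horn markers were higher and 1 lower. In injured cord 1 Schwann cell marker and 1 dorsal horn marker were lower and 1 ventral interneuron marker was higher in knockout.

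Other cholinergic and motor neuron genes gave few calls in cord. Of 22 other cholinergic genes tested, 1 was lower with injury in wild type, Chrm2 (-0.15 ± 0.04, adjusted p = 0.0274), and 1 in knockout, the muscarinic receptor Chrm5 (-0.67 ± 0.18, adjusted p = 0.0297). Of 12 other motor neuron genes, 1 was higher in wild type and 2 in knockout: Gfra1 in both (0.55 ± 0.09 and 0.58 ± 0.09) and its signalling partner Ret in knockout (0.55 ± 0.08, adjusted p = 0.000239). Between genotypes none of the 12 was called in either state. Of the 22 other cholinergic genes, Chka, a choline kinase, was higher in naive knockout cord (0.28 ± 0.06) and Lynx1, a modulator of nicotinic receptors, was lower (-0.12 ± 0.03). Chrna7 was higher in injured knockout cord (0.26 ± 0.07, adjusted p = 0.0273).

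Within cord, some of the members moved together from library to library. After each group's mean was taken off log2(CPM + 1), 15 of 36 member pairs had an adjusted permutation p under 0.05 over the 18 libraries, by Pearson's r. These were all the pairs among Chat, Slc18a3, Slc5a7, Mnx1, Prph and Chodl, with r from 0.77 (Mnx1 and Prph) to 0.97 (Slc5a7 and Prph). Ache, Isl1 and Isl2 were in none of the 15. The share of all gene pairs that reach this is not given here, so the count is not read as a trait of the members. The libraries also share their depth and dissection, which these p-values do not take into account. For Chat and Slc18a3 r was 0.92 and Spearman's rho 0.92 (permutation p = 5e-05 and 9e-05, adjusted p = 0.000216 and 0.000495). Leaving out E5 and F5, the libraries farthest from the median, gave r = 0.85. For Chat and Prph r was 0.94 and rho 0.91 (permutation p = 3e-05 and 0.0001, adjusted p = 0.000216 and 0.000495), with 0.88 without those 2 libraries. In the 10 naive cord libraries alone r was 0.88 for Chat and Slc18a3 and 0.93 for Chat and Prph, and in the 8 injured ones 0.93 and 0.94. Chat and Ache gave r = 0.00 (rho 0.10, permutation p = 0.991 and 0.713, adjusted p = 0.991 and 0.778). For that pair r was 0.57 in the 10 naive libraries, -0.55 in the 8 injured ones and 0.31 without E5 and F5. The value near 0 thus joins opposite signs in the 2 states, and that difference was not tested.

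The genes nearest to the mean of scaled Chat, Slc18a3 and Slc5a7 over the 18 cord libraries, of 15981 with a mean of at least 1 CPM, were Prph (r = 0.97), Chodl (0.96), the potassium channel gene Kcnj14 (0.95), the transporter gene Slc10a4 (0.94), the peptide gene Calca (0.94), Lcp1 (0.94), the small heat shock gene Hspb8 (0.94) and the peptide gene Uts2b (0.93). No p is given, since the libraries share their depth and dissection. Sums of markers of other cells did not follow Chat with a call. Against Chat, r was -0.47 for sensory neuron markers, 0.28 for ventral interneuron markers, -0.42 for dorsal horn markers, -0.38 for muscle, -0.13 for blood and 0.01 for Schwann cell markers. For these 6 relations the adjusted permutation p was 0.48 or more by Pearson's r and 0.511 or more by Spearman's rho, and without E5 and F5 r was -0.28, 0.28, -0.24, -0.13, -0.07 and -0.07.

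Genes of the axotomy response rose in injured cord, 9 of 12 in each genotype. Atf3, a transcription factor induced by axon damage, went from 0.88 to 23.9 CPM in wild type and from 0.862 to 26.6 CPM in knockout. Sprr1a, a marker of cut neurons, went from 0.183 to 38.5 and from 0.0445 to 38.9 CPM, and galanin (Gal) from 8.46 to 26.9 and from 8.26 to 38.2 CPM. Among the injured libraries, F5 held the least Atf3, at 11.2 CPM, where the other 7 held 22.4 to 36.6 CPM. F5 also held the least Sprr1a (22.7 CPM, others 30.7 to 54.9), the least Gal (19.2, others 24 to 50.2) and the least Hspb1, a small heat shock gene (8.99, others 13.2 to 23.8). The highest library for all 4 was E6, which also held the most Chat.

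Over the 8 injured cord libraries, 108 pairs of a member and an axotomy gene were related on log2(CPM + 1) by exact permutation. By Pearson's r, 37 pairs had an adjusted p under 0.05, all positive, and by Spearman's rho none did (lowest adjusted p 0.0821, 21 pairs unadjusted under 0.05). The 37 were spread over Chat (6 of 12), Slc18a3 (5), Slc5a7 (6), Mnx1 (7), Prph (7) and Chodl (6). No pair of Ache, Isl1 or Isl2 was among them, and none with Jun, Sox11, Gap43, Flrt3 or Stmn4. How many pairs of other genes would pass is not given here, so the 37 are not read as a trait of the members. With each genotype's mean taken off, all 37 kept r over 0.5 (lowest 0.77). Taken the same way, r of Ache with the 12 axotomy genes ran from -0.82 (Atf3) to 0.21 (Stmn4), with no p computed. For all 37 the 2 libraries farthest from the median of the member were F5 and F7. Without them 23 of the 37 had r over 0.5, 36 were above 0, 9 had an exact p under 0.05, and r ran from -0.29 to 0.89. Many of the 37 relations thus rested on F5 and F7. Outside the 37, r of Jun with Chat, Slc18a3, Slc5a7, Mnx1, Prph and Chodl was above 0 and fell below 0 without F5 and F7. Some relations of these members with Sox11 and Stmn4 changed sign too. Chat and Slc18a3 gave the lowest r with Jun once these libraries were left out. For Chat and Jun r went from 0.38 to -0.91 (unadjusted exact p = 0.0139). For Slc18a3 and Jun it went from 0.58 to -0.92 (unadjusted exact p = 0.0153).

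The pair of Chat and Atf3 was one of the 37, with r = 0.80 (exact p = 0.0167, adjusted p = 0.0487) and rho = 0.50 (exact p = 0.216, adjusted p = 0.424). Without F5 and F7 its r was 0.39 (exact p = 0.432), so that the relation no longer held. The pairs given next are among the 9 of the 37 with an exact p under 0.05 without F5 and F7. They are not typical of the 37, and as those libraries were left out by their values, this p supports nothing. Chat and Csf1, a cytokine gene of injured neurons, gave r = 0.95 (exact p = 0.000769, adjusted p = 0.0141), rho = 0.88 (exact p = 0.00724, adjusted p = 0.0978) and r = 0.83 without F5 and F7 (exact p = 0.0417). Prph and Sprr1a gave r = 0.81 (exact p = 0.00729, adjusted p = 0.0281), rho = 0.95 (exact p = 0.00114, adjusted p = 0.0821) and r = 0.88 without F5 and F7 (exact p = 0.00417). Slc5a7 and Hspb1 gave r = 0.97 (exact p = 0.000843, adjusted p = 0.0141), rho = 0.76 (exact p = 0.0368, adjusted p = 0.209) and r = 0.81 without them (exact p = 0.0472). Each genotype alone has 4 libraries, too few for a correlation.

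**Figure D3:**
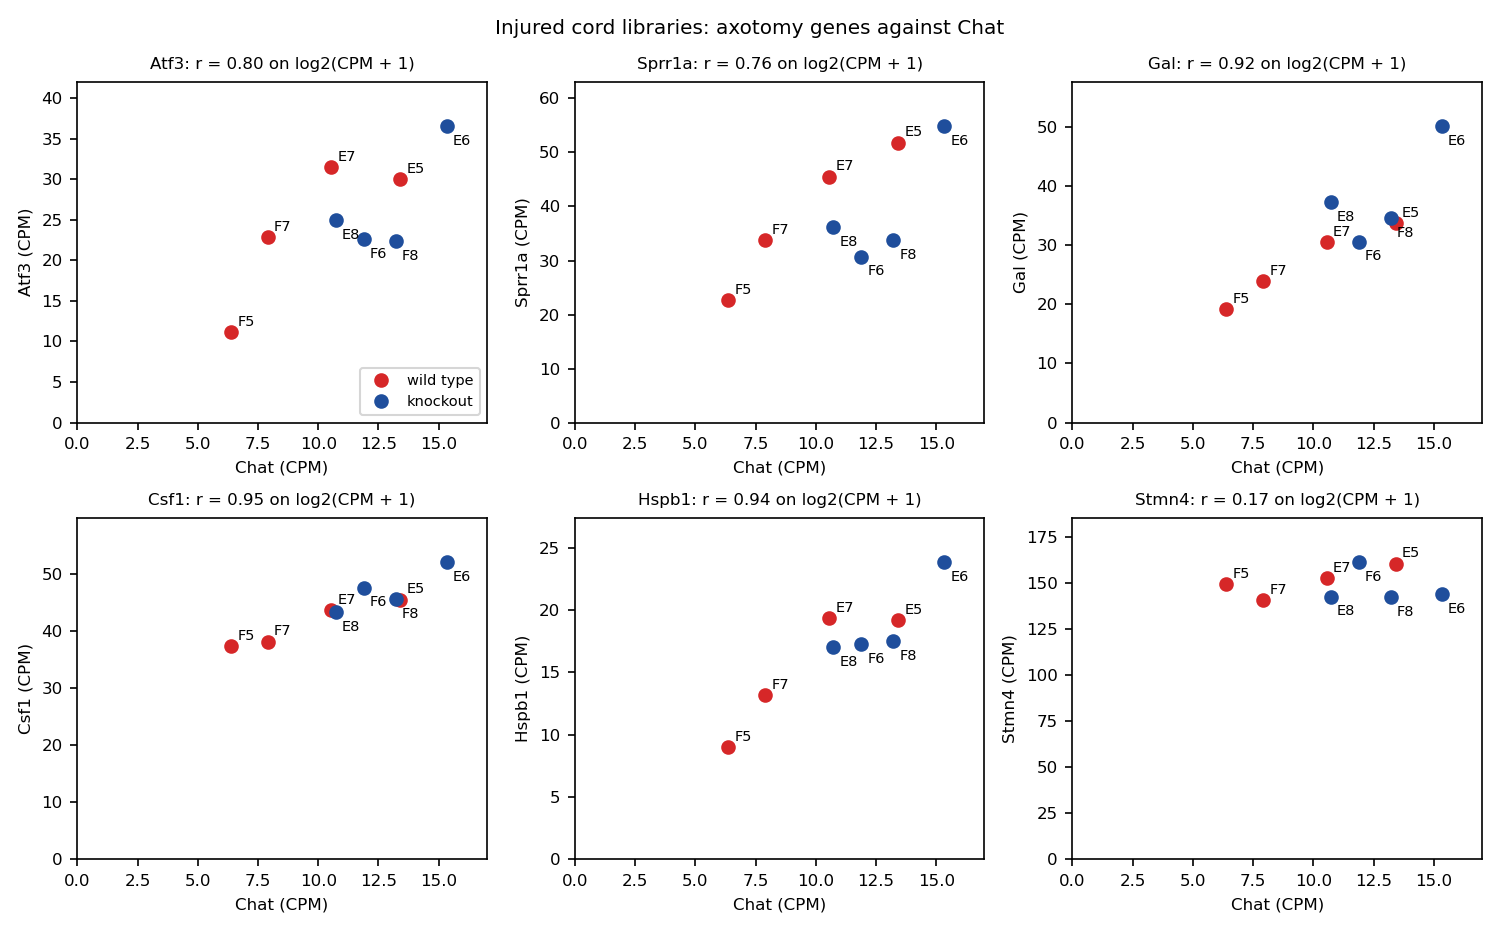
CPM of 6 axotomy genes against CPM of Chat in the 8 injured cord libraries (red, wild type; blue, knockout; each point labelled with its library), on linear axes from 0, with Pearson's r on log2(CPM + 1) above each panel. F5 sits at the lower left for Atf3, Sprr1a, Gal, Csf1 and Hspb1 and E6 at the upper right. F7, next lowest in Chat, lies within the other libraries for Atf3 and Sprr1a, and Stmn4 is flat (r = 0.17).

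Reads of each member were also set against reads of Chat in the same cord library, a ratio chosen after the values were seen. Prph gave 1.95, 2.69, 2.17, 2.14 and 2.44 reads per Chat read in naive wild type and 3.95, 4.4, 2.84 and 3.21 in E5, E7, F5 and F7. In knockout it gave 1.96 to 2.3 naive and 3.5 to 4.37 injured. All injured libraries lay above all naive ones in both genotypes, F5 and F7 included: 1.58-fold in wild type and 1.78-fold in knockout. With 5 against 4 libraries the smallest two-sided exact permutation p is 0.0159, which both reached, and neither passed adjustment over the 16 ratios tested (adjusted p = 0.0847). Slc18a3 per Chat read was 1.31 ± 0.122 and 1.27 ± 0.279 in naive and injured wild type, with overlap (exact p = 0.746), and 1.22 ± 0.12 and 1.49 ± 0.144 in knockout, without overlap (exact p = 0.0159, adjusted p = 0.0847). None of the other 13 ratios, which include those of Slc5a7 and Chodl, separated the groups.

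**Figure D4:**
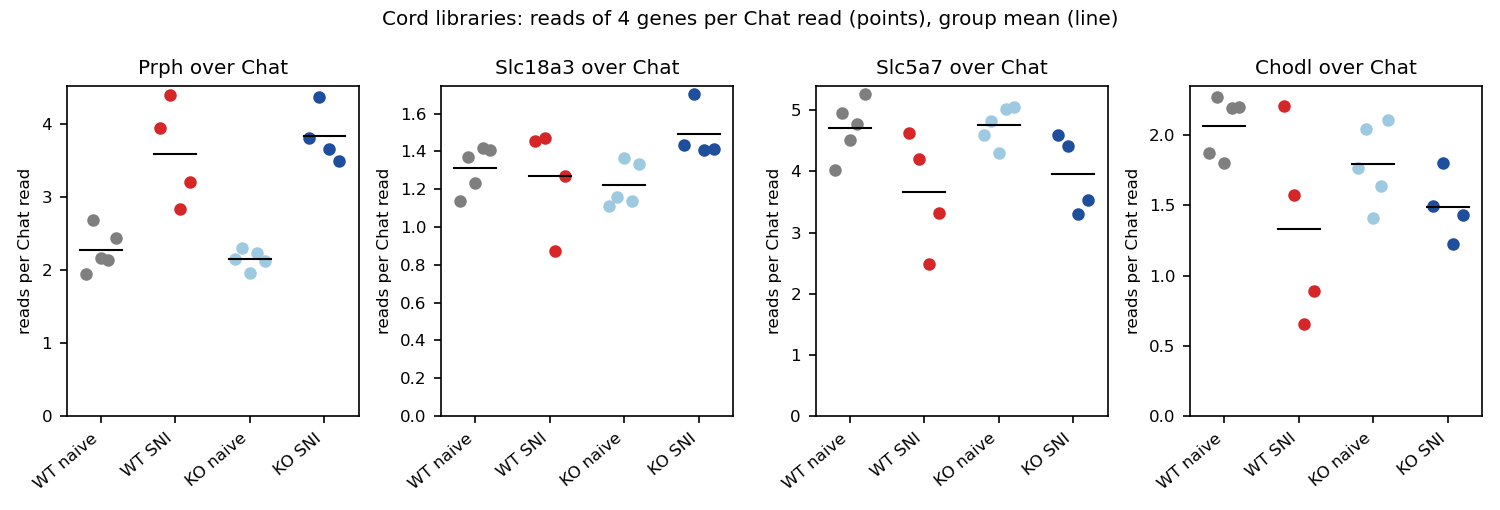
Estimated reads of Prph, Slc18a3, Slc5a7 and Chodl per Chat read in each cord library (linear axes from 0; WT, wild type; KO, knockout), with the group mean as a line. For Prph every injured library (2.84 to 4.4) lies above every naive one (1.95 to 2.69), while Slc5a7 and Chodl overlap between naive and injured groups.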

How the data were processed

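RNA of DRG and dorsal spinal cord was sequenced from stranded poly(A) libraries, per the labels' protocols. FastQC 0.11.5, HISAT2, RSEM and build GRCm38 are named in the submitters' processing notes. What each did, and with which annotation, is not given in the sources used here. A table deposited by the authors holds expected counts (estimated reads per gene, not whole). In it the E1 column, of other form, had 9150 cells with decimal commas, which were read as points, and 1 lost cell, restored to 1780.86 from the second table. That second deposited table holds signal values, the raw column times 1 factor in 36 of 36 libraries within 1 part in 1000, and was used only for that repair.

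Counts were rounded and tested with edgeR 4.0.16 in R 4.3.3 (TMM, filterByExpr, robust quasi-likelihood F test), 18 libraries in 4 groups per tissue and 20 naive libraries between tissues. The procedure was tested on simulated data. Column headings give DRG and cord libraries of a group matching numbers. The labels do not say whether these mark the same mouse, and the main fit between tissues did not pair them. Groups followed the labels, and for A2 and A4 the genotype field. Standard errors are the log2 fold change over the square root of F. Correlations used scipy 1.17.1 on log2(CPM + 1), with a pseudocount of 1, all 8-library orders or 100000 permutations. Alternatives were RLE factors, DESeq2 1.42.0, no filter, 2-group fits, left-out libraries and a block from column-heading numbers; the fits of the lists without A2 and A4 and of cord without F5 and F7 were added after the values were seen.

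The members and lists were chosen with earlier results of these data known. All 9 members were named in each comparison, with up to 3 called genes per list and comparison by lowest adjusted p and the 8 genes most like the cholinergic trio; of these, those of the main comparisons are printed. The knocked-out gene is not reported here.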

Additional observations from a re-analysis of the deposited data

Results flagged for a closer look

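Within groups of 4 or 5 libraries, 60 sets of member values were searched for a library set apart from the rest of its group by Dixon's criterion, which chance meets in about 1 of 20, and 3 were found. Isl1 was 1.67 CPM in naive knockout cord library A8, where the other 4 reached 1.12 CPM. Isl1 was 2.44 CPM in injured wild-type cord library E5, where the next highest was 1.41 CPM. E5 is also the highest of its group for Chat, Slc18a3, Slc5a7, Mnx1, Isl2, Prph and Chodl. Isl2 was 38.3 CPM in injured knockout DRG library F4, below 48.2 to 49.5 CPM in the other 3.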

How the results depend on the processing

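The counts of called members kept their value or moved by under 1.5 times in 258 of 288 alternative results, and no member reversed direction where it was called. In naive DRG, the count between genotypes went from 0 to 1 with RLE factors, DESeq2, a replicate block from the column-heading number and a fit of the 2 groups alone, where the member was Ache (adjusted p = 0.0439, 0.0294, 0.00823 and 0.0345). It was 0 to 1 when single libraries were left out, the member being Isl1 without C2 and Ache otherwise. Without the filter on low counts, 6 of 9 members were called for SNI in knockout DRG, 2 of them higher. In cord, the count for SNI in knockout went from 1 to 2 with DESeq2, with the 2 groups alone and without F5 and F7, and was 0 to 2 over left-out libraries. Over left-out libraries the count for SNI in wild-type cord was 1 to 2, and that between genotypes in injured cord 0 to 1. The relation of Chat to Atf3 was 0.80, 0.39 without F5 and F7, and 0.51 to 0.86 over left-out libraries. The replicate block moved no other count of members past 1.5 times; the labels do not say what its number marks. Depth limits Chat, Slc18a3 and Mnx1 in DRG and Mnx1, Isl1 and Isl2 in cord, where few reads were counted.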
